A study of Mus musculus with 15 samples.

Results

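Transcripts of collagens and of stromal matrix proteins were read in RNA-sequencing libraries of sorted mouse adipose tissue macrophages. The set held every gene symbol made of Col, a type number, the letter a and a chain number, together with Dcn, Bgn, Lum, Sparc, Sparcl1, Fn1, Fbln1, Dpt, Smoc2 and Efemp1. It came to 54 genes, 44 collagens and 10 others, chosen by name and not by level. All 54 were present in both deposited tables, among 28347 genes of the steady-state table and 48709 genes of the surgery table.

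The 15 libraries fell into 5 groups of 3, all from C57BL/6 mice. In the steady state, the groups were visceral adipose macrophages high for both CX3CR1 and CCR2 (named CCR2-high), macrophages of that tissue low for both (named CCR2-low), and libraries labelled as monocytes of the blood. The surgery libraries held macrophages low for both receptors from visceral fat, after myocardial infarction (MI) or sham surgery. The labels name no transgene and no drug, and they give no ages, time after surgery, gates or cell numbers. Nothing in the labels says whether the 3 libraries of a group came from separate animals, so p-values measure the spread between these libraries, which may be technical.

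Collagens are secreted proteins of the extracellular matrix, built from chains that wind into triple helices. Fibrillar collagens form the fibres of connective tissue, collagen IV forms the sheet of basement membranes under endothelium and around each adipocyte, and collagen VI forms beaded filaments that are abundant in adipose tissue. Small leucine-rich proteoglycans such as decorin and lumican bind to collagen fibrils. In adipose tissue most of these transcripts are known as products of fibroblasts, preadipocytes, mural cells and endothelial cells, while fibronectin is also a known macrophage product.

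The labels were checked against marker transcripts. Macrophage markers summed to 39164 to 41628 TPM (transcripts per 1e6 transcripts) in CCR2-high, 40224 to 52381 TPM in CCR2-low and 1005 to 1243 TPM in labelled monocyte libraries. Ccr2 averaged 451 ± 18.2 TPM in CCR2-high, 76.1 ± 8.79 TPM in CCR2-low and 58.9 ± 6.01 TPM in labelled monocyte libraries (SD, n = 3 each). The 8 listed transcripts of granulocyte and monocyte precursors summed to 33.2 to 41.1 TPM in CCR2-low libraries and to 30991 to 37405 TPM in the libraries labelled monocytes. The libraries with that label are therefore called labelled monocytes throughout. Reads worked back from the values came to 41.4 to 60.2 M (M, 1e6) per steady-state library and 61.6 to 81.6 M per surgery library. The denominators of the surgery libraries' RPKM (reads per kilobase and 1e6 reads), also worked back, came to 57.6 to 75.5 M. They lay below the worked-back reads of each surgery library, so these depths are estimates.

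At the steady state CCR2-high macrophage libraries held less of most collagen and matrix transcripts than CCR2-low libraries, and labelled monocyte libraries held very little of nearly all of them. Without fibronectin, the members together came to 55.2, 43.1 and 92.0 TPM in the CCR2-high libraries and to 172, 276 and 283 TPM in the CCR2-low libraries. The same sum was 5.09, 5.60 and 4.63 TPM in the labelled monocyte libraries. The groups did not overlap in this sum. These are bulk libraries, so fewer cells of a type that makes a transcript and less of the transcript per cell cannot be told apart here.

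Every gene was tested with limma on log2(TPM + 1) over all 9 steady-state libraries, and called at a Benjamini-Hochberg adjusted p below 0.05. Genes entered the test with 1 TPM or more in at least 3 libraries, which 19 of the 54 members did, 10 collagens and 9 others. Between CCR2-high and CCR2-low libraries 17 of these 19 passed, 2 as higher and 15 as lower in CCR2-high. Of all 15467 genes tested, 17.7% were called, 8.93% higher and 8.74% lower. The median difference of the 19 members was -1.49 on the log2 scale, against -0.0085 for all genes tested.

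The filter bears on these counts. Among the 19 members, Bgn and Col16a1 reached 1 TPM only in CCR2-low libraries and Col11a2 only in labelled monocyte libraries. In both macrophage groups 15 reached it in at least 1 library, and Fn1 did so in all 3 groups. Of these 15, Col6a1, Col1a1, Col1a2, Smoc2 and Lum reached it in CCR2-high replicate 3 alone. Efemp1 and Col18a1 missed it in CCR2-high replicate 2. All of these genes but Col11a2 therefore needed CCR2-low libraries, where their means were higher than in CCR2-high libraries, to enter. With CCR2-high and labelled monocyte libraries alone, 10 members entered. With no filter, 2 members were called higher and 16 lower of all 54, where 3.28% of 28347 genes were called higher and 4.39% lower. Counting libraries alone, 26 of the 53 members above 0 were lower in each CCR2-high library than in every CCR2-low library, 2 were higher in each, and 25 overlapped. The same held in the lower direction for 14.6% of all genes above 0 and in the higher direction for 12.2%.

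**Figure D1:**
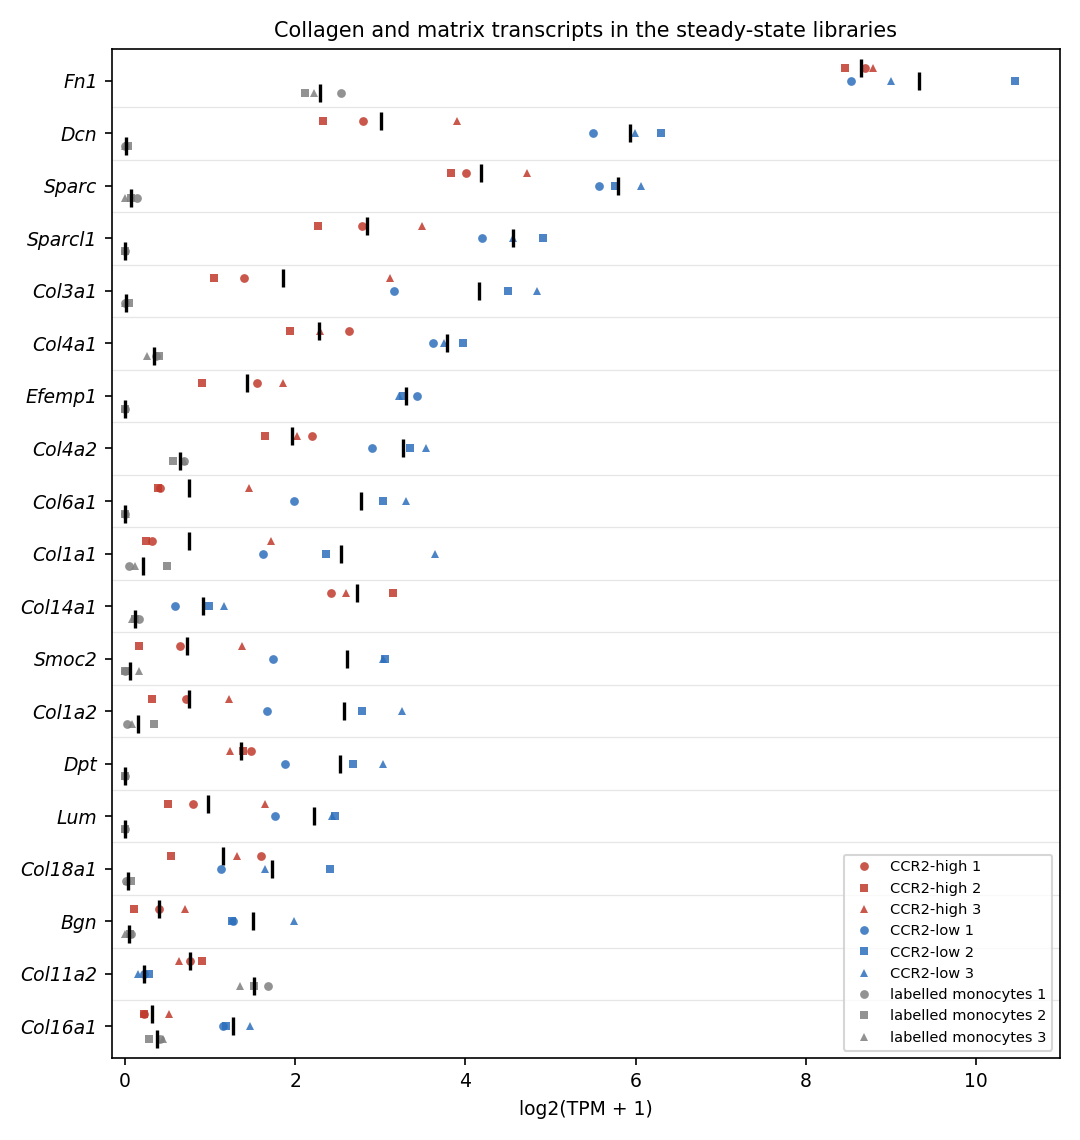
Levels of the 19 tested members in the 9 steady-state libraries, as log2(TPM + 1) on the horizontal axis, with 1 point per library and a black bar at the mean of each group. Most members lie to the right in CCR2-low libraries, Col14a1 lies to the right in CCR2-high libraries, Col11a2 in labelled monocyte libraries, and Fn1 lies far above the other members in both macrophage groups.

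Fn1 (ENSMUSG00000026193, mm10 chromosome 1, 71585520 to 71653200) encodes fibronectin, a glycoprotein that links cell surface integrins to collagen. It had 414, 351 and 442 TPM in CCR2-high, 368, 1405 and 511 TPM in CCR2-low and 4.80, 3.34 and 3.66 TPM in labelled monocyte libraries. CCR2-low replicate 2 stood far above the other libraries, and the 2 macrophage groups overlapped. The difference between CCR2-high (402 ± 46.6 TPM) and CCR2-low (762 ± 562 TPM) did not pass the test (log2 difference -0.68 ± 0.38 SE, adjusted p = 0.257), and it was -0.12 without that library. Fn1 made up 82.8 to 89.1% of the members' summed TPM in CCR2-high libraries, 64.4 to 83.6% in CCR2-low libraries and 37.4 to 48.6% in labelled monocyte libraries. It was higher than in labelled monocytes by a log2 difference of 6.36 in CCR2-high (adjusted p = 5.6e-08) and 7.04 in CCR2-low libraries (adjusted p = 2.1e-08). On the log2(TPM + 1) scale both were the largest differences among the members that were above 0 in labelled monocytes. That order depended on the setting. Over the alternatives tried, the CCR2-low difference reached 9.12 for Dcn, 8.56 for Sparc and 7.44 for Fn1. The CCR2-high difference reached 6.90 for Sparc and 6.65 for Fn1.

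Among the 11 fibrillar collagens 4 were tested between the macrophage subsets, of which Col1a1, Col1a2 and Col3a1 were lower in CCR2-high libraries and Col11a2 was higher. Col3a1 (ENSMUSG00000026043, chromosome 1, 45311538 to 45349706), the chain of collagen III, had 1.63, 1.07 and 7.65 TPM in CCR2-high, 7.94, 21.6 and 27.6 TPM in CCR2-low and 0, 0.032 and 0 TPM in labelled monocyte libraries. CCR2-high replicate 3 came close to CCR2-low replicate 1, and the groups did not overlap. The log2 difference between CCR2-high and CCR2-low was -2.31 ± 0.51 SE (adjusted p = 0.0118, and 0.053 without CCR2-high replicate 1). Col1a1 and Col1a2 encode the chains of collagen I, the main fibre protein of connective tissue, and averaged 0.90 ± 1.19 and 0.75 ± 0.55 TPM in CCR2-high libraries. The same chains averaged 5.90 ± 4.96 and 5.54 ± 3.19 TPM in CCR2-low libraries (SD, n = 3 each).

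Both collagen I chains were called lower in CCR2-high libraries, with log2 differences of -1.78 ± 0.49 SE for Col1a1 (adjusted p = 0.030) and -1.82 ± 0.36 SE for Col1a2 (adjusted p = 0.0065). The groups overlapped for Col1a1, where CCR2-high replicate 3 stood at 2.28 TPM and CCR2-low replicate 1 at 2.08 TPM. Its call was lost without CCR2-high replicate 1 (adjusted p = 0.115), CCR2-high replicate 2 (adjusted p = 0.086) or CCR2-low replicate 3 (adjusted p = 0.086). Between CCR2-high and labelled monocyte libraries neither collagen I chain passed the test (adjusted p = 0.330 for Col1a1 and 0.145 for Col1a2). The Col1a2 difference from labelled monocytes was called when CCR2-low replicate 1 was left out of the shared spread (adjusted p = 0.041). It was also called when 0.1 TPM in place of 1 was added before taking log2 (adjusted p = 0.020). The other fibrillar collagens that could not be tested stayed at or below 2.66 TPM, a value reached by Col5a3, and Col24a1 was above 0 in 2 labelled monocyte libraries alone.

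Col11a2 (ENSMUSG00000024330, chromosome 17, 34039437 to 34066685), a chain of the cartilage-type fibrillar collagen XI, ran against the other fibrillar collagens and is given by library because of values already seen. It had 0.694, 0.867 and 0.550 TPM in CCR2-high, 0.168, 0.219 and 0.114 TPM in CCR2-low and 2.20, 1.87 and 1.55 TPM in labelled monocyte libraries. The 3 groups were separate, with labelled monocytes highest and CCR2-low lowest. These levels rest on 87 to 124 worked-back reads per CCR2-high library, 15 to 36 per CCR2-low library and 218 to 256 per labelled monocyte library. The log2 difference between CCR2-high and CCR2-low was 0.54 ± 0.16 SE (adjusted p = 0.038), and the call was lost on leaving out any 1 of the 6 macrophage libraries, with adjusted p from 0.052 to 0.110. Against labelled monocytes Col11a2 was lower, with a log2 difference of -0.75 in CCR2-high (adjusted p = 0.0011) and -1.30 in CCR2-low libraries (adjusted p = 1.6e-05), and no other member was called lower than in labelled monocytes. After quantile normalization Col16a1 was also called lower in CCR2-high than in labelled monocyte libraries, at -0.47 (adjusted p = 0.016), in place of -0.06 (adjusted p = 0.745).

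The promoters of Col3a1 and Col11a2 are printed because these fibrillar collagens differed in opposite directions between the macrophage subsets. Each is the RefSeq window of build GRCm38.p6, 250 bases before to 50 after the annotated start, 5′ to 3′ on the strand of the gene. Capitals mark matches on either strand to the TATA box, spelled TATAAA (on the other strand TTTATA), to the CCAAT box (on the other strand ATTGG) and to the GC box, spelled GGGCGG (on the other strand CCGCCC). Col3a1 lies at chr1:45311288-45311587 on the plus strand and Col11a2 at chr17:34038888-34039187 on the plus strand, where the RefSeq start lies upstream of the GENCODE gene start. Of all 32851 windows of 300 bases, 13.6% held the TATA box, 37.4% the CCAAT box and 35.7% the GC box. Windows were found for 40 members, and of these 44 windows 6 held the TATA box, 13 the CCAAT box and 26 the GC box. A match describes the letters of the window and nothing more.
Col3a1: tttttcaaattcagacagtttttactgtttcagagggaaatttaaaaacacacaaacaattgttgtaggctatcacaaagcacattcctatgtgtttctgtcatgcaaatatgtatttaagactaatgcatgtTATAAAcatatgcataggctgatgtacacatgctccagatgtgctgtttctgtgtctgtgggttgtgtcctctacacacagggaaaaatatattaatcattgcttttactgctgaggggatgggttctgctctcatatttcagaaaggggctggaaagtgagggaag
Col11a2: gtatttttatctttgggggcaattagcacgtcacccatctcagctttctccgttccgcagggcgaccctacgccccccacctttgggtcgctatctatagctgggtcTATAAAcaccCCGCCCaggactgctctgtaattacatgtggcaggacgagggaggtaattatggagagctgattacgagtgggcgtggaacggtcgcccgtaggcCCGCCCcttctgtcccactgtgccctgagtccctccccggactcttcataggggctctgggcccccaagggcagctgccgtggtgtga

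The Col3a1 window held a TATA box 117 bases before the start and no GC box, and 37.7% of its bases were G or C. The Col11a2 window held a TATA box 143 bases before the start and a GC box on the other strand at 133 and 38 bases before it, with 59.0% G or C. In both windows the TATA box lay on the strand of the gene.

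Collagen IV is encoded by 6 genes, and the chains of Col4a1 and Col4a2 combine into the trimer found in most basement membranes. Col4a1 had 5.18, 2.82 and 3.91 TPM in CCR2-high, 11.3, 14.6 and 12.4 TPM in CCR2-low and 0.286, 0.319 and 0.200 TPM in labelled monocyte libraries. The 3 groups were separate, with labelled monocytes lowest. Between CCR2-high and CCR2-low the log2 difference was -1.49 ± 0.18 SE for Col4a1 (adjusted p = 0.00053) and -1.31 ± 0.20 SE for Col4a2 (adjusted p = 0.0015). Col4a2, given by library because of values already seen, had 3.60, 2.13 and 3.07 TPM in CCR2-high, 6.50, 9.20 and 10.6 TPM in CCR2-low and 0.617, 0.485 and 0.619 TPM in labelled monocyte libraries. Its groups were separate as well.

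Col4a1 and Col4a2 lie head to head on chromosome 8 and share 22 exonic bases, Col4a1 (ENSMUSG00000031502) at 11198423 to 11312826 and Col4a2 (ENSMUSG00000031503) at 11312805 to 11449287 (mm10). Their windows, printed because the pair moved together, share 78 bases at chr8:11312777-11312854. The Col4a1 window is chr8:11312777-11313076 on the minus strand and the Col4a2 window chr8:11312555-11312854 on the plus strand, with capitals for the same 3 motifs.
Col4a1: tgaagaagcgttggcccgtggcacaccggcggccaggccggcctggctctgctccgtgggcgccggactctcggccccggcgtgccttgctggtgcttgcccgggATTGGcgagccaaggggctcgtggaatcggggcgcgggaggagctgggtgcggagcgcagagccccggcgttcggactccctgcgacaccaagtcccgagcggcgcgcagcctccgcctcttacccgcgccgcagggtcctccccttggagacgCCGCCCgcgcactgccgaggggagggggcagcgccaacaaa
Col4a2: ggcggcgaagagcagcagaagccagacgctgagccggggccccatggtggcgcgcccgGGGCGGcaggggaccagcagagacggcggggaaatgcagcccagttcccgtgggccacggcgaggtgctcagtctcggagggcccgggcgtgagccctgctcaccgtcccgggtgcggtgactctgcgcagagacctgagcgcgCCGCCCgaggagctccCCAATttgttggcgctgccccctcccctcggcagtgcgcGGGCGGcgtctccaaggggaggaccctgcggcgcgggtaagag

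Neither collagen IV window held a TATA box. A CCAAT box lay 145 bases before the Col4a1 start on the other strand and 32 bases before the Col4a2 start on the gene's own strand, and 74.0% and 73.7% of the bases were G or C. The Col4a1 to Col4a2 ratio of TPM was 1.27 to 1.44 in CCR2-high libraries and 1.17 to 1.74 in CCR2-low libraries, with overlapping ranges. In labelled monocyte libraries it was 0.324 to 0.658, so Col4a2 was the more abundant chain per length there. None of the 4 other collagen IV chains was tested, and the highest of their values was 1.00 TPM, of Col4a5 in CCR2-low replicate 3. In all, 4 of the 6 collagen IV genes were lower in each CCR2-high library than in every CCR2-low library.

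Collagen VI was almost missing from labelled monocyte libraries. Its 6 genes summed to 0.881 to 3.39 TPM in CCR2-high, 5.03 to 15.5 TPM in CCR2-low and 0 to 0.0111 TPM in labelled monocyte libraries. Col6a1, which encodes a chain found in collagen VI trimers, was the member of the family that entered the test. It averaged 0.80 ± 0.83 TPM in CCR2-high and 6.35 ± 3.05 TPM in CCR2-low libraries (SD, n = 3 each), a log2 difference of -2.02 ± 0.35 SE (adjusted p = 0.0034). Against labelled monocytes the CCR2-high difference of 0.75 did not pass the test (adjusted p = 0.073, and 0.026 when CCR2-low replicate 1 was left out of the shared spread). The Col6a1 difference was also called with 0.1 TPM added in place of 1 (adjusted p = 0.0018). With the replicate number as a block it was called too (adjusted p = 0.038). Col6a2 reached 3.94 TPM in CCR2-low replicate 3, the highest single value of any member that was not tested. The Col6a1 to Col6a2 ratio was 0.771 to 2.05 in CCR2-high libraries and 2.25 to 3.31 in CCR2-low libraries, and the fewest worked-back reads behind these ratios were 28.0, for Col6a1 in CCR2-high replicate 2.

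Col14a1 was the member with the largest difference in the other direction. The gene (ENSMUSG00000022371, chromosome 15, 55307750 to 55520803) encodes a fibril-associated collagen that decorates the surface of collagen fibrils, and it is given by library because of values already seen. It had 4.34, 7.86 and 5.06 TPM in CCR2-high, 0.506, 0.978 and 1.24 TPM in CCR2-low and 0.118, 0.0854 and 0.0556 TPM in labelled monocyte libraries. Every CCR2-high library stood above every other library, and the labelled monocytes were lowest. The log2 difference between CCR2-high and CCR2-low was 1.81 ± 0.22 SE (adjusted p = 0.00045), and the call held on leaving out each library in turn. Against labelled monocytes it was 2.60 in CCR2-high libraries (adjusted p = 7.8e-07).

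The other fibril-associated collagen that was tested, Col16a1, went the other way, with 0.25 ± 0.16 TPM in CCR2-high and 1.42 ± 0.30 TPM in CCR2-low libraries (SD, n = 3 each) and a log2 difference of -0.95 ± 0.17 SE (adjusted p = 0.0035). Col18a1, a basement membrane collagen whose end fragment is endostatin, averaged 1.32 ± 0.80 TPM in CCR2-high and 2.55 ± 1.61 TPM in CCR2-low libraries and did not pass the test (adjusted p = 0.270). It was higher than in labelled monocytes in both subsets, by 1.11 in CCR2-high (adjusted p = 0.0091, and 0.082 after quantile normalization) and 1.69 in CCR2-low libraries (adjusted p = 0.00061). The smaller difference of Col14a1 between CCR2-low and labelled monocyte libraries, 0.79 (adjusted p = 0.0055), was not called after quantile normalization (adjusted p = 0.25).

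All 3 small leucine-rich proteoglycans were lower in CCR2-high libraries. Dcn (ENSMUSG00000019929, chromosome 10, 97479609 to 97518143) encodes decorin, which binds collagen fibrils, and it had 5.95, 4.02 and 13.9 TPM in CCR2-high, 44.2, 77.5 and 62.8 TPM in CCR2-low and 0, 0.0261 and 0 TPM in labelled monocyte libraries. The groups were far apart, and CCR2-high replicate 3 was the highest of its group. The log2 difference between CCR2-high and CCR2-low was -2.92 ± 0.34 SE (adjusted p = 0.00040), the largest in size among the tested members on the log2(TPM + 1) scale. The plain ratio of means was 0.129 for Dcn and 0.126 for Col6a1. Lum, encoding lumican, lies 46985 bases from Dcn on chromosome 10 and differed by -1.24 ± 0.29 SE (adjusted p = 0.0138, and 0.057 without CCR2-high replicate 1). The Dcn to Lum ratio was 6.54 to 9.62 in CCR2-high libraries and 14.2 to 18.5 in CCR2-low libraries, so decorin made up the larger share of the pair in CCR2-low. Bgn, encoding biglycan, differed by -1.10 ± 0.23 SE (adjusted p = 0.0083).

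The SPARC family of secreted calcium-binding proteins was also lower in CCR2-high libraries for all 3 members. Sparc itself (ENSMUSG00000018593, chromosome 11, 55394500 to 55423183), a collagen-binding protein, had 15.1, 13.2 and 25.4 TPM in CCR2-high, 46.5, 53.2 and 65.6 TPM in CCR2-low and 0.105, 0.0485 and 0 TPM in labelled monocyte libraries. Its relative Sparcl1 (ENSMUSG00000029309, chromosome 5, 104079111 to 104113733) had 5.89, 3.80 and 10.3 TPM in CCR2-high, 17.4, 29.1 and 22.5 TPM in CCR2-low and 0 TPM in each labelled monocyte library. Neither gene had overlapping groups, and CCR2-high replicate 3 was again the highest of its group for both. The log2 differences between CCR2-high and CCR2-low were -1.61 ± 0.22 SE for Sparc (adjusted p = 0.00082) and -1.71 ± 0.28 SE for Sparcl1 (adjusted p = 0.0023). Smoc2, a matricellular member of the family, averaged 0.76 ± 0.75 TPM in CCR2-high and 5.61 ± 2.83 TPM in CCR2-low libraries and differed by -1.88 ± 0.37 SE (adjusted p = 0.0062).

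Of the glycoproteins other than Fn1, Efemp1 (fibulin-3, a short fibulin of elastic tissue) differed between CCR2-high and CCR2-low by -1.87 ± 0.22 SE (adjusted p = 0.00040). It averaged 1.80 ± 0.88 TPM in CCR2-high and 8.91 ± 0.77 TPM in CCR2-low libraries (SD, n = 3 each). Dpt, encoding dermatopontin, which binds decorin and helps collagen fibrils form, differed by -1.16 ± 0.25 SE (adjusted p = 0.0100). Fbln1, encoding fibulin-1, was not tested and averaged 0.20 ± 0.21 TPM in CCR2-high and 0.97 ± 0.07 TPM in CCR2-low libraries, with no overlap.

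Against labelled monocytes, 12 of the 19 tested members were higher in CCR2-high libraries, Col11a2 was lower and 6 were not called, where 77.8% of all genes were called, 26.5% higher and 51.3% lower. In CCR2-low libraries 18 members were higher and Col11a2 was lower, where 79% of all genes were called, 28.4% higher and 50.6% lower. These comparisons share the labelled monocyte libraries, and the CCR2-low one shares its libraries with the comparison of subsets. The filter bears on these directions too. Of the 19, only Fn1 and Col11a2 reached 1 TPM in a labelled monocyte library. Col11a2 entered through those libraries alone, and the members other than these entered through macrophage libraries alone. Without a filter, 36 of the 54 members were called higher in CCR2-low libraries and 1 lower, where 20.2% of genes were higher and 29.9% lower. For CCR2-high it was 14 higher and 1 lower, where 13090 of 28347 genes were called, 4562 of them higher. Of the 53 members above 0, 40 were higher in each CCR2-low library than in every labelled monocyte library, where the same held for 25% of all genes above 0. The CCR2-high count depended on the 1 TPM added before log2. With 0.1 added, 16 of the 19 were higher and 1 lower, with 4190 of 15467 genes higher. Col6a1, Col1a2, Smoc2 and Bgn were then called. With 5 added, 10 were higher and 1 lower, with 3942 genes higher.

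Sparcl1, Efemp1, Dpt and Lum were at 0 in every labelled monocyte library, so their differences are bounds against 3 worked-back reads per library. Sparcl1 was at least 110-fold higher in CCR2-high and at least 380-fold higher in CCR2-low libraries, and Efemp1 was at least 20.7-fold higher in CCR2-high and at least 102-fold higher in CCR2-low libraries. Dpt was at least 15.4-fold higher in CCR2-high and at least 49.4-fold higher in CCR2-low libraries. Lum was at least 15.1-fold higher in CCR2-high and at least 52.2-fold higher in CCR2-low libraries. With these 4 genes at their bounds, the median log2 difference of the tested members was 1.23 for CCR2-high and 2.55 for CCR2-low against labelled monocytes, where the medians of all genes were -0.42 and -0.40. Quantile normalization moved those all-gene medians by 0.24 and 0.23, and no tested member changed direction under it.

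**Figure D2:**
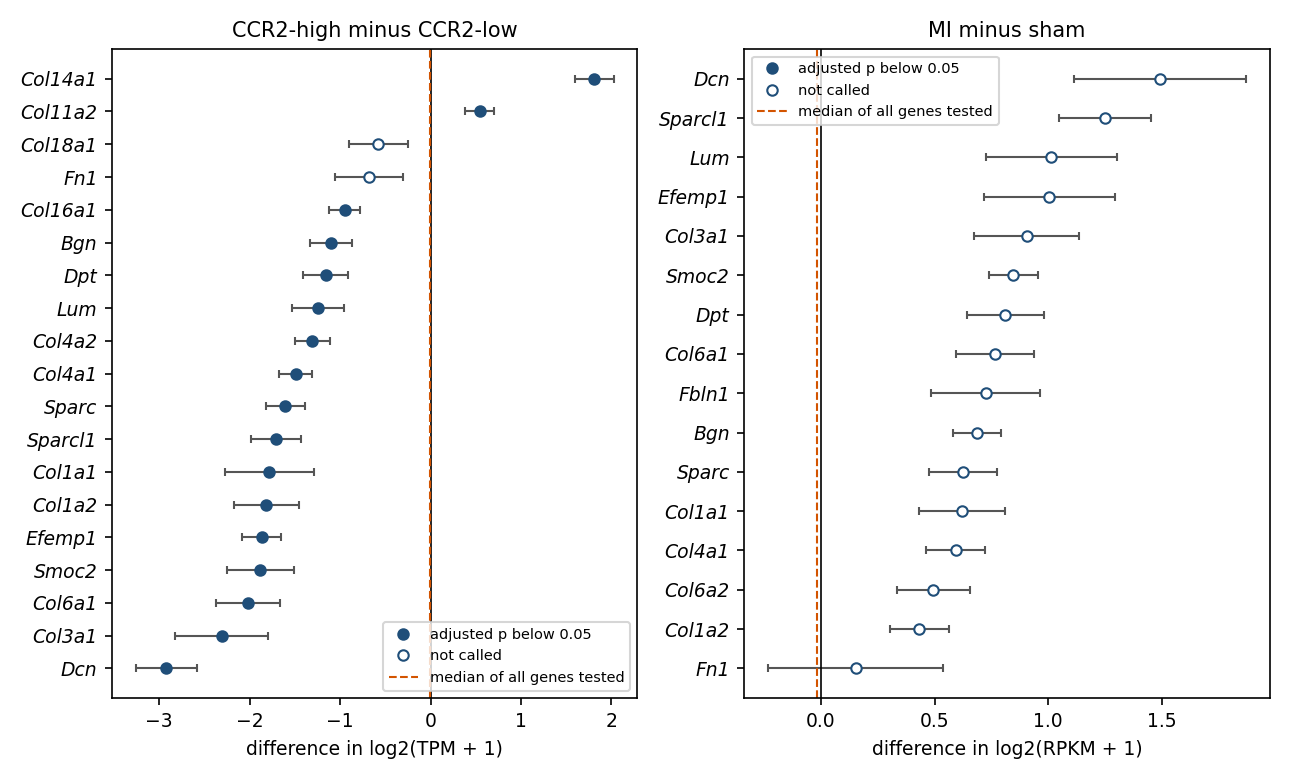
Differences in log2(value + 1) for the tested members, CCR2-high minus CCR2-low on the left (19 members) and MI minus sham on the right (16 members). Bars are SE, filled points passed an adjusted p of 0.05, and the dashed line is the median of all genes tested. On the left 15 members lie below 0 as called and Col14a1 and Col11a2 above 0, and on the right every point is open and above 0.

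Among the 18 tested members other than Fn1, CCR2-high replicate 3 was the highest CCR2-high library for 12 and CCR2-high replicate 2 the lowest for 15. Of all genes tested, 20.9% were highest in the first of these libraries and 24.7% lowest in the other. In the CCR2-low group, replicate 1 was the lowest library for 15 of these 18 members and for 39.6% of all genes. The labelled monocyte libraries, compared over the 10 members with 3 different values there, were each the highest for 2 to 4 members and the lowest for 2 to 5. Dcn alone made up 9.33 to 15.1% of the members' sum without Fn1 in CCR2-high libraries and 22.2 to 28.1% in CCR2-low libraries.

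The 35 members that did not enter the steady-state test were low throughout, and 27 members stayed under 1 TPM in every library. Of the 54 members, 17 were above 0 in all 9 libraries, and none was at 0 in all 9. Col9a1 was above 0 in 1 library, CCR2-high replicate 3, at 0.00862 TPM.

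Genes that make or handle collagen were read from lists chosen with earlier results of these data known. Of the 19 tested genes of collagen synthesis and assembly, 8 were lower and none higher in CCR2-high libraries, with a median of -0.39. Serpinh1, the collagen chaperone HSP47, averaged 2.11 ± 0.98 TPM in CCR2-high and 11.9 ± 1.29 TPM in CCR2-low libraries (log2 difference -2.09, adjusted p = 0.00020). Crtap and Leprel1, which act in prolyl hydroxylation of collagen, and Fkbp10, a collagen chaperone, were the other genes with the smallest p, at -0.80, -1.10 and -0.99. Collagen receptors and uptake genes went both ways, with 4 of 7 higher and 2 lower in CCR2-high libraries. Lair1, an inhibitory collagen receptor of leukocytes, averaged 77.3 ± 9.45 TPM in CCR2-high and 43.9 ± 6.87 TPM in CCR2-low libraries (adjusted p = 0.0042). Ddr1, a collagen receptor kinase, and Mmp14, a membrane collagenase, were higher by 0.80 and 1.69, and Mrc1, a mannose receptor that takes up collagen, was lower, at -0.60.

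Further matrix genes outside the set were mostly lower in CCR2-high libraries. Elastic fibre genes were lower for 8 of 10 tested, among them Ltbp1 (-3.21) and Ltbp4 (-1.98), which bind latent TGF-beta. Laminin and basement membrane genes were lower for 5 of 6, led by Nid1 (-1.69) and Hspg2 (-1.16), the genes of nidogen-1 and perlecan. Of 10 proteoglycan and matricellular genes 5 were lower, including Ecm1 (-1.48) and Ogn (-1.76), and Spp1, encoding osteopontin, was higher at 105 ± 112 TPM in CCR2-high against 3.35 ± 3.39 TPM in CCR2-low libraries (log2 difference 4.34, adjusted p = 0.0015).

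Between the macrophage subsets, markers of stromal and other cells mostly moved with the members. Endothelial markers summed to 32.6 to 60.1 TPM in CCR2-high and 139 to 187 TPM in CCR2-low libraries, and 10 of 12 tested were lower in CCR2-high. Mural markers summed to 12.2 to 35.9 TPM in CCR2-high and 49.9 to 107 TPM in CCR2-low libraries, with 5 of 6 lower. Adipocyte markers summed to 40.4 to 58.4 TPM in CCR2-high and 84.7 to 163 TPM in CCR2-low libraries, with 5 of 5 lower. Mesothelial markers summed to 1.38 to 16.6 TPM in CCR2-high and 15.1 to 22.0 TPM in CCR2-low libraries, with 4 of 7 lower. The highest mesothelial sum of CCR2-high libraries was that of replicate 3, which was also highest for most matrix members. Adipocyte sums ran the other way by library, at 45.3, 58.4 and 40.4 TPM in CCR2-high libraries. In CCR2-low replicate 1, the lowest of its group for most matrix members, the adipocyte sum was the group's highest, at 163 TPM. In labelled monocyte libraries, where the members without Fn1 summed to at most 5.60 TPM, some lists did not follow the members. Endothelial sums there were 36.98 to 49.49 TPM, within the CCR2-high range, mostly Pecam1 (22.96 to 30.65 TPM). Mesothelial sums were 13.49 to 16.86 TPM, overlapping the CCR2-low range, mostly Krt18 (11.98 to 15.54 TPM). Mural sums reached 13.79 TPM, and adipocyte sums, 0.925 to 1.65 TPM, were below both macrophage groups.

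Fibroblast and preadipocyte markers were split, with 4 of 9 tested lower and 1 higher in CCR2-high libraries. Their sums overlapped, at 271 to 342 TPM in CCR2-high and 305 to 496 TPM in CCR2-low libraries, and most of each sum was Gsn, C3 and Ly6a, which other cells also express. In labelled monocyte libraries the list summed to 424 to 557 TPM, with Cd34 as its largest part. Pdgfra, a defining receptor of these cells singled out after its values were seen, had 0.0184, 0 and 0.713 TPM in CCR2-high, 0.782, 1.18 and 1.28 TPM in CCR2-low and 0, 0 and 0.0072 TPM in labelled monocyte libraries. Its highest CCR2-high value was in replicate 3. Dpp4, of the same list, ran the other way, with 4.39, 2.91 and 5.77 TPM in CCR2-high and 1.18, 1.78 and 1.30 TPM in CCR2-low libraries. In CCR2-high replicate 2, where 15 members were lowest of the group, Pdgfra, Pdgfrl and the mesothelial markers Msln, Gpm6a, Lrrn4, Bnc1 and Wt1 were at 0. Msln was also at 0 in CCR2-high replicate 1. Serpinf1, of the fibroblast list, was highest of its group in replicate 2, with 25.1, 42.8 and 26.8 TPM in CCR2-high libraries. No stromal marker was at 0 in any CCR2-low library. Large peritoneal macrophage markers also differed, at 109 to 196 TPM in CCR2-high and 717 to 1953 TPM in CCR2-low libraries, with 7 of 7 lower. Platelet and megakaryocyte markers were called higher for 1 of 5 and lower for none. The part of any of these cells in the matrix differences was not tested.

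**Figure D3:**
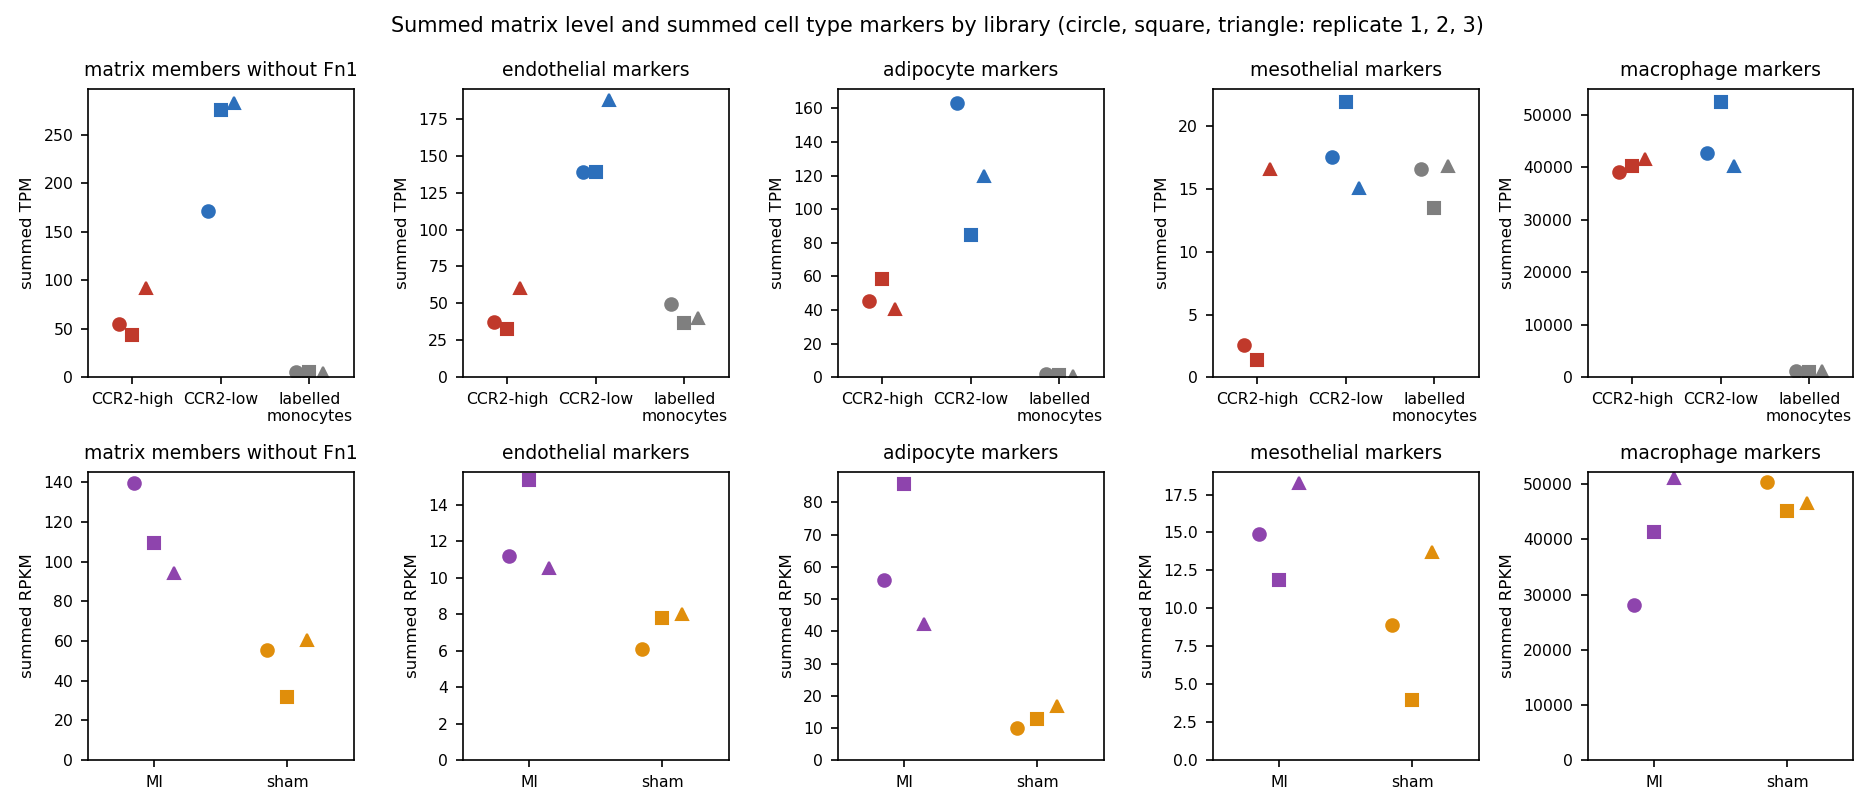
Summed level of the members without Fn1 and of marker lists for endothelial cells, adipocytes, mesothelial cells and macrophages, 1 point per library, with TPM of the steady-state libraries above and RPKM of the surgery libraries below, each axis starting at 0. The matrix, endothelial and adipocyte sums are lower in each CCR2-high library than in every CCR2-low library and higher in each MI library than in every sham library, while the macrophage sums overlap in both pairs of groups.

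The authors ran a test of their own on the steady-state libraries. An adjusted p for CCR2-high over CCR2-low was given for 35 members in the authors' deposited table, and 12 were under 0.05, 2 higher and 10 lower, where 1.65% of 15706 genes were higher and 2.23% lower. Col14a1 (2.77, adjusted p = 1.6e-15), Col11a2 (2.12, adjusted p = 0.0041), Col6a1 (-3.08, adjusted p = 2.4e-06) and Dcn (-2.79, adjusted p = 0.045) were among them in the authors' deposited table. For Sparc and Col3a1 the authors' deposited table gives -1.47 and -2.02 with an adjusted p of 1, whereas both were called in the limma test above. For monocyte over CCR2-high, 26 of 44 members were lower and none higher in the authors' deposited table, where 23.5% of genes were lower and 14.2% higher. For monocyte over CCR2-low, 37 of 42 members were lower and 1 higher in the authors' deposited table, where 28.2% of genes were lower and 17.9% higher.

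After surgery, nearly all measurable members had higher values in CCR2-low macrophages of MI mice than in those of sham mice, and none passed the test over all genes. Ccr2 itself ranged over 8.09 to 27.4 RPKM in MI and 31.5 to 41.4 RPKM in sham libraries, without overlap. Adgre1, a macrophage marker, ranged over 489 to 766 RPKM in MI and 858 to 979 RPKM in sham libraries. Cx3cr1 overlapped, at 5.11 to 18.9 and 18.1 to 25.6 RPKM. The part of these differences in the matrix values was not tested. Without Fn1, the members summed to 139.9, 109 and 94.3 RPKM in the MI libraries and to 55.6, 32.1 and 60.5 RPKM in the sham libraries, with no overlap. The limma test on log2(RPKM + 1) covered 9607 genes and 16 members, 6 collagens and all 10 others. No gene was called, 0 of 9607, so 0% of genes and 0 of the 16 members passed an adjusted p of 0.05. At an unadjusted p below 0.05 there were 753 genes (7.84%), of which 320 genes (3.33% of those tested) were higher in MI, and 15 of the 16 members, each higher in MI. Fn1 was the exception.

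The filter was passed only through MI libraries by Fbln1, Smoc2 and Col6a2, so these 3 could enter only by being higher in MI. Col4a1 reached 1 RPKM in sham replicate 1 alone, and Col1a2 and Dpt missed it in sham replicate 2. These genes also needed the MI libraries to enter. Over all 51 members above 0, 23 were higher in each MI library than in every sham library and none was lower in each, while 28 overlapped. The same held for 6.48% of all genes above 0 in the higher direction and for 6.08% in the lower direction. The median log2 difference of the 16 tested members was 0.74, against -0.016 for all genes. Leaving out MI replicate 3 gave 5 called genes, of which 1 was a member, Sparcl1.

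**Figure D4:**
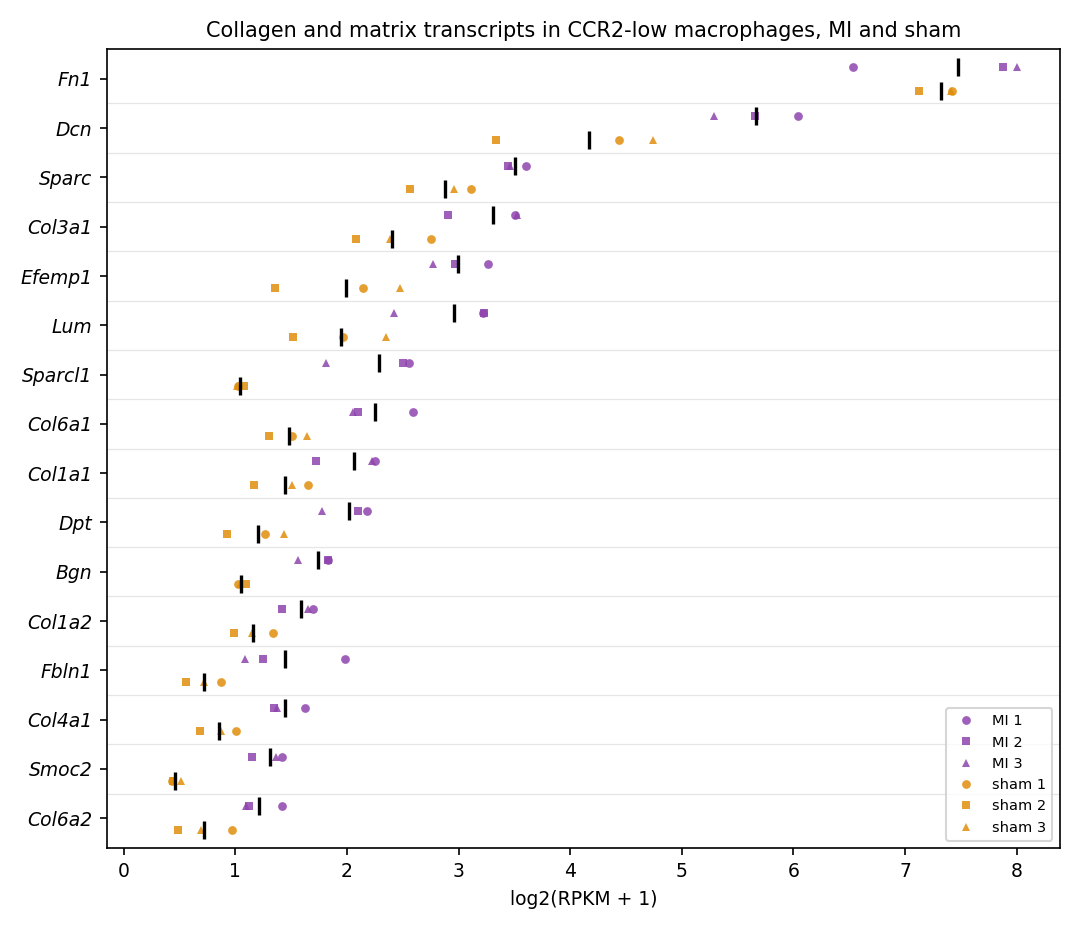
Levels of the 16 tested members in CCR2-low macrophage libraries of MI and sham mice, as log2(RPKM + 1) on the horizontal axis, with 1 point per library and a black bar at the mean of each group. MI and sham libraries separate for every member shown but Fn1, and sham replicate 2 is the lowest sham library for most members.

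Dcn had 64.7, 49.5 and 38.2 RPKM in MI and 20.6, 9.10 and 25.8 RPKM in sham libraries. Each MI library stood above every sham library. The means were 50.8 ± 13.3 RPKM in MI and 18.5 ± 8.55 RPKM in sham libraries (SD, n = 3 each), a log2 difference of 1.49 ± 0.38 SE that did not pass the test (adjusted p = 0.465). Lum, the proteoglycan beside it on the chromosome, had 8.34, 8.38 and 4.36 RPKM in MI and 2.91, 1.86 and 4.10 RPKM in sham libraries. The groups nearly met, at MI replicate 3 and sham replicate 3, and the difference was 1.01 ± 0.29 SE (adjusted p = 0.536). The Dcn to Lum ratio ranged over 5.91 to 8.76 in MI and 4.88 to 7.10 in sham libraries and overlapped.

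Col3a1 had 10.4, 6.48 and 10.48 RPKM in MI and 5.74, 3.23 and 4.22 RPKM in sham libraries. Its groups did not overlap, and the log2 difference was 0.90 ± 0.23 SE (adjusted p = 0.465). Col1a1 and Col1a2 differed by 0.62 ± 0.19 SE (adjusted p = 0.554) and 0.43 ± 0.13 SE (adjusted p = 0.554), Col6a1 by 0.76 ± 0.17 SE (adjusted p = 0.432) and Col4a1 by 0.59 ± 0.13 SE (adjusted p = 0.413), none past the threshold. Over the tested and untested genes alike, 6 of the 11 fibrillar collagens, 3 of the 6 collagen VI genes and 2 of the 6 collagen IV genes were higher in each MI library than in every sham library. The Col4a1 to Col4a2 ratio was 1.21 to 1.77 in MI and 0.995 to 1.77 in sham libraries.

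Sparc had 11.2, 9.89 and 10.02 RPKM in MI and 7.65, 4.92 and 6.77 RPKM in sham libraries. The MI libraries were close together and above all sham libraries, with a log2 difference of 0.63 ± 0.15 SE (adjusted p = 0.463). Sparcl1, given by library because of values already seen, had 4.87, 4.68 and 2.51 RPKM in MI and 1.04, 1.11 and 1.02 RPKM in sham libraries. Its sham libraries nearly coincided and lay below every MI library, and the log2 difference was 1.25 ± 0.20 SE (adjusted p = 0.339). Without MI replicate 3, the lowest MI library for Sparcl1, the difference was 1.49 (adjusted p = 0.015). Smoc2, also given because of values already seen, had 1.68, 1.22 and 1.57 RPKM in MI and 0.352, 0.361 and 0.425 RPKM in sham libraries, and with 0.85 ± 0.11 SE it had the smallest unadjusted p of the members, 0.00014 (adjusted p = 0.241).

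Efemp1 had 8.58, 6.82 and 5.81 RPKM in MI and 3.43, 1.57 and 4.57 RPKM in sham libraries. No sham library reached an MI library, and the log2 difference was 1.00 ± 0.29 SE (adjusted p = 0.543). Fn1 had 91.4, 234 and 256 RPKM in MI and 170.0, 138 and 169 RPKM in sham libraries. MI replicate 1 was lower than every sham library, while the other MI libraries were higher, so the groups overlapped. The Fn1 difference of 0.15 ± 0.38 SE (adjusted p = 0.941) became -0.05 without MI replicate 2, -0.11 without MI replicate 3 and 0.62 without MI replicate 1.

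Among the 15 tested members other than Fn1, MI replicate 1 was the highest MI library for 13 and sham replicate 2 the lowest sham library for 12, where 39.0% and 32.1% of all genes were. MI replicate 1, the lowest for Fn1, also had the lowest macrophage marker sum, 28039 RPKM, against 41334 and 51077 RPKM in the other MI libraries and 45216 to 50426 RPKM in sham libraries. Most of this sum was Lyz2, at 17600 RPKM in MI replicate 1 against 32621 and 42358 RPKM in the other MI libraries. C1qa, C1qb, C1qc, Csf1r and Timd4 were highest of all surgery libraries in MI replicate 1. Adgre1 was lowest there, and Cd68, Fcgr1 and Mertk lay within the range of the others. Fn1 made up 39.5% of the members' sum in MI replicate 1, against 68.2 and 73.1% in the other MI libraries and 73.7 to 81.2% in sham libraries. Without MI replicate 1, the median difference of the tested members was 0.64, in place of 0.74.

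The members that ran against the others at the steady state were low in the surgery libraries. Col14a1 stood at 0.320, 0.568 and 0.404 RPKM in MI and 0.148, 0.336 and 0.408 RPKM in sham libraries, and Col11a2 at 0.0653, 0.114 and 0.122 RPKM in MI and 0.110, 0.246 and 0.234 RPKM in sham libraries. Both overlapped between groups, and neither entered the test. Of the 38 members not tested, the highest single value was 1.27 RPKM, of Col4a2, and 37 members stayed under 1 RPKM in every library. Col11a1, Col9a1 and Col9a2 were listed at 0 in all 6 surgery libraries.

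Between the groups, adipocyte and other markers mostly moved with the matrix members after surgery, again with none called. Adipocyte markers summed to 42.2 to 85.7 RPKM in MI and 9.95 to 16.7 RPKM in sham libraries, and 4 of 4 tested were higher in MI at an unadjusted p below 0.05. Cfd, encoding the adipocyte product adipsin, averaged 47.4 ± 18.9 RPKM in MI and 9.39 ± 2.64 RPKM in sham libraries (SD, n = 3 each). Endothelial markers summed to 10.55 to 15.3 RPKM in MI and 6.09 to 7.998 RPKM in sham libraries, without overlap. Mural markers summed to 3.24 to 14.0 RPKM in MI and 2.57 to 4.42 RPKM in sham libraries and mesothelial markers to 11.9 to 18.3 RPKM in MI and 3.96 to 13.7 RPKM in sham libraries, with overlap in both. At an unadjusted p below 0.05, 1 of 3 endothelial, 3 of 4 mesothelial and 0 of 2 mural markers were higher in MI. Large peritoneal macrophage markers summed to 39.1 to 136 RPKM in MI and 25.0 to 31.2 RPKM in sham libraries, with 4 of 4 higher at that level. By library the order differed in part from that of most members, which were highest in MI replicate 1 and lowest in sham replicate 2. Cfd and the endothelial and mural sums were highest in MI replicate 2. Cfd and the endothelial sum were lowest in sham replicate 1. Each mesothelial marker was lowest in sham replicate 2, as most members were.

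The fibroblast and preadipocyte list ran the other way in sum, at 295 to 590 RPKM in MI and 568 to 904 RPKM in sham libraries, most of it Ly6a, C3 and Gsn. Of its 6 tested genes, 1 was higher and 1 lower in MI at an unadjusted p below 0.05, with a median log2 difference of 0.17. Pdgfra, chosen after its values were seen, had 0.683, 0.292 and 0.204 RPKM in MI and 0.141, 0.0986 and 0.151 RPKM in sham libraries, with no overlap and with its highest value in MI replicate 1. Ly6a, of the same list, ran the other way, with 45.5, 75.7 and 161 RPKM in MI and 450, 236 and 186 RPKM in sham libraries. No adipocyte, endothelial, mural, mesothelial or fibroblast marker was at 0 in any surgery library. The part of these cells in the matrix values was not tested.

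Of the collagen synthesis genes, 1 of 12 was higher in MI at an unadjusted p below 0.05, Serpinh1, with 2.04 ± 1.17 RPKM in MI and 0.82 ± 0.27 RPKM in sham libraries (adjusted p = 0.621). Among the further matrix genes, Mgp, encoding the calcification inhibitor matrix Gla protein, averaged 7.75 ± 2.19 RPKM in MI and 2.72 ± 0.72 RPKM in sham libraries, and Ogn, Nid1 and Fbln2 were also higher at an unadjusted p below 0.05. None of the 5 collagen receptor and uptake genes tested was. With no call among 9607 genes, these values stand as a description of 6 libraries.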

How the data were processed

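RNA was isolated from the sorted cells (pico pure kit) for Illumina sequencing, per the labels' protocols. For 9 steady-state libraries the authors deposited TPM per gene, with their own log2 fold changes and adjusted p-values, per the file headers. For 6 surgery libraries they deposited RPKM, with column names that record paired, trimmed reads. Values refer to build mm10 (submitters' processing notes). No aligner, counting method, strand setting or test is named in those sources.

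Annotation came from GENCODE M21 on that build, which matched 27754 steady-state and 48349 surgery genes. Of the exonic bases of a tested member, at most 2.50% also lay in another gene (Fn1, with antisense Apol7d). Depth was worked back as value × exonic length over the value of 1 read. Of low values, 72.6 to 74.3% (steady state) and 83.6 to 84.7% (surgery) were whole within 0.1 of a read, so read numbers are estimates, and bounds from them cover counting error only.

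limma 3.58.1 (R 4.3.3) was run on log2(value + 1) with an intensity trend, for genes that reached 1 in 3 or more libraries. The 9 steady-state libraries shared 1 fit. P-values were two-sided and adjusted over all genes tested, and fold changes on this scale understate the change of low genes. The tables were not tested against each other. Per-library values were given for members with a group mean of at least 10 TPM or 5 RPKM, and of each list up to 4 genes with the smallest p were named. The members and lists were chosen with earlier results of these data known. Python 3.11.15, pandas 2.3.3 and numpy 2.4.6 were used for sums and counts. Alternatives were the pseudocount, the filter, quantile normalization, rescaled RPKM, replicate blocks, the groups fitted and each library left out. The deposited lists of genes under the authors' own limit were not used.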

Additional observations from a re-analysis of the deposited data

How the results depend on the processing

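Directions of the tested members held under every alternative tried, except for Fn1 in MI against sham, at -0.05 without MI replicate 2 and -0.11 without MI replicate 3 (-0.11 to 0.62 over the 6 libraries left out). Single members kept their side of the threshold in 264 recalculations for CCR2-high against CCR2-low and lost a call in 17, all of Col11a2, Col1a1, Col3a1 and Lum. For CCR2-high against labelled monocytes they kept it in 260, gained a call in 10 and lost a call in 3. The count of members called needed low genes to be tested: with a mean of at least 5 TPM required it was 5 between the subsets, and 6 for each subset over labelled monocytes, because fewer members were tested. With no filter it was 37 for CCR2-low against labelled monocytes. Leaving out 1 library gave 13 to 16 members called between the subsets, 12 to 16 for CCR2-high and 17 to 19 for CCR2-low against labelled monocytes, and 0 to 1 for MI against sham. The same steps gave 1481 to 3453 genes called between the subsets, against 2733 with all libraries. Dropping CCR2-high replicate 1 gave 1481 genes and replicate 3 of that group 1800, and dropping CCR2-low replicate 1 gave 1580 genes and replicate 3 of that group 1612. For MI against sham the range was 0 to 5 genes, with the 5 genes and 1 member found without MI replicate 3.

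Samples with the same replicate number did not deviate together (r of -0.03, -0.36 and -0.22 between the subsets, and -0.57, 0.06 and -0.10 between MI and sham). The library numbers in the surgery column names gave r of 0.17, 0.10 and -0.51. Differently numbered samples reached r of 0.37 between the subsets and 0.64 between MI and sham. With 3 libraries per group, these values cannot settle whether any libraries were paired. A replicate block gave 1795 genes and 16 members between the subsets, and 0 genes for MI against sham. The log2 ratio of the members' summed level was -0.96 for CCR2-high over CCR2-low, with -1.58 for collagens alone and -1.98 without Fn1. Over labelled monocytes it was 5.68, 2.38 and 3.57 for all members, collagens alone and members without Fn1 in CCR2-high, and 6.64, 3.96 and 5.54 for CCR2-low. For MI over sham these 3 sums gave 0.55, 0.95 and 1.25. The 3 sums differ only in which members they add. Depth limits members at low levels, as with Col11a2, which rests on as few as 15 worked-back reads in a CCR2-low library.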
